A study of Mus musculus with 6 samples.

Results

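The common gamma chain family comprises the receptor chains for IL-2, IL-4, IL-7, IL-9, IL-15 and IL-21, and its transcripts were examined in Tregs sorted from the BM of CML and naive mice. The 8 genes were picked by name (Il2ra, Il2rb, Il2rg, Il7r, Il4ra, Il9r, Il15ra and Il21r) from the 36930 features of the deposited tables. All 8 were found once each, and all 8 were among the 13923 features with a mean of at least 1 RPKM (reads scaled to transcript length and to library size) that were tested.

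All 6 mice carried the Foxp3-DTR-GFP allele, in which the locus of Foxp3, the lineage transcription factor of Tregs, drives a diphtheria toxin receptor and GFP, and their age in the labels was 8 weeks after birth. The 3 CML mice had received, without irradiation, syngeneic LSK progenitors transduced with a BCR-ABL1-GFP retrovirus, and their Tregs were taken at day 15. The 3 naive mice had no leukemia. Each mouse gave 1 library, and per-library values are given throughout in the order of replicates 1, 2 and 3. Both the Treg reporter and the leukemic cells carry GFP, which limits GFP alone as a mark of Tregs in the CML mice. The study's gating scheme for Tregs starts from CD4+ T cells, which would remove leukemic myeloid cells, but the gate of the sort for RNA is not stated separately.

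All of these cytokines signal through receptors that share Il2rg, the common gamma chain, which brings Jak3 to the complex. The other signaling chain of each receptor, Il2rb for IL-2 and IL-15, brings Jak1. IL-2 and IL-15 both use Il2rb and Il2rg, and each has a private alpha chain, Il2ra (CD25) or Il15ra, that binds the cytokine. Tregs make hardly any IL-2 of their own, keep Il2ra at a high level and depend on IL-2 and STAT5 for survival and for Foxp3 expression, whereas Il7r (CD127) is usually low on Tregs compared with conventional T cells.

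Treg identity was checked with 7 markers (Foxp3, Ikzf2, Ctla4, Lrrc32, Cd4, Cd3e and Cd3g), whose summed level was 1679 to 2141 RPKM in CML and 1617 to 1792 RPKM in naive libraries. Conventional CD4 T cells also express Cd4, Cd3e and Cd3g, so this sum cannot tell Tregs from them. The 8 B lineage markers summed to at most 10.7 RPKM, with Pax5, Vpreb1, Igll1 and Ebf1 among those at 0 in all libraries, the 5 NK cell markers to at most 5.64 RPKM and the 5 mast cell or basophil markers to at most 4.02 RPKM. The 2 CD8 T cell markers summed to 51.1 to 74.2 RPKM in CML and 26.2 to 58.7 RPKM in naive libraries. The 8 neutrophil markers summed to 8.77, 203 and 212 RPKM in CML replicates 1, 2 and 3 and to 23.5 to 53.3 RPKM in naive libraries, and the 6 erythroid markers to 24.6 to 136 RPKM in CML and 4.09 to 17.1 RPKM in naive libraries. The 4 monocyte or macrophage markers (29.8 to 60.7 and 35.6 to 55.4 RPKM) and the 5 progenitor markers (11.1 to 19.8 and 13.8 to 20.4 RPKM) overlapped between the groups. The part of these other cells in the values below was not tested. Estimated from the spacing of low values, the libraries held 829181 to 7613827 reads in CML and 5187987 to 9751911 in naive Tregs. CML replicate 2 had the fewest reads, and its 10 highest features took 50.7% of its summed RPKM, compared with 28.5% to 31.3% in the other libraries.

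At the level of the whole family, Il2rb was the gene that separated CML from naive Tregs most widely, with a mean 2.45 times as high in CML Tregs, while Il2rg was somewhat lower and Il7r and Il4ra overlapped between the groups. None of the 8 genes reached an adjusted p under 0.05 with a fold of at least 1.5 (limma, Benjamini-Hochberg over all 13923 features), a threshold that 0.172% of all features passed, 0.0431% as higher and 0.129% as lower. With the p left unadjusted and the fold kept, 1 of the 8 (Il2rb, higher) passed, compared with 8.55% of all features in either direction and 2.61% in the higher direction. CML and naive libraries did not overlap for 4 of the 8 genes, with 2 higher (Il2rb and Il15ra) and 2 lower (Il2rg and Il9r) in CML Tregs. Among all features tested, 4.84% were higher and 12.2% were lower without overlap. The log2 fold change was above 0 for 6 of the 8 genes, with a median of 0.18 compared with -0.18 over all features tested. RNA was measured in bulk, so fewer cells that express a gene and less RNA per cell cannot be told apart.

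**Figure D1:**
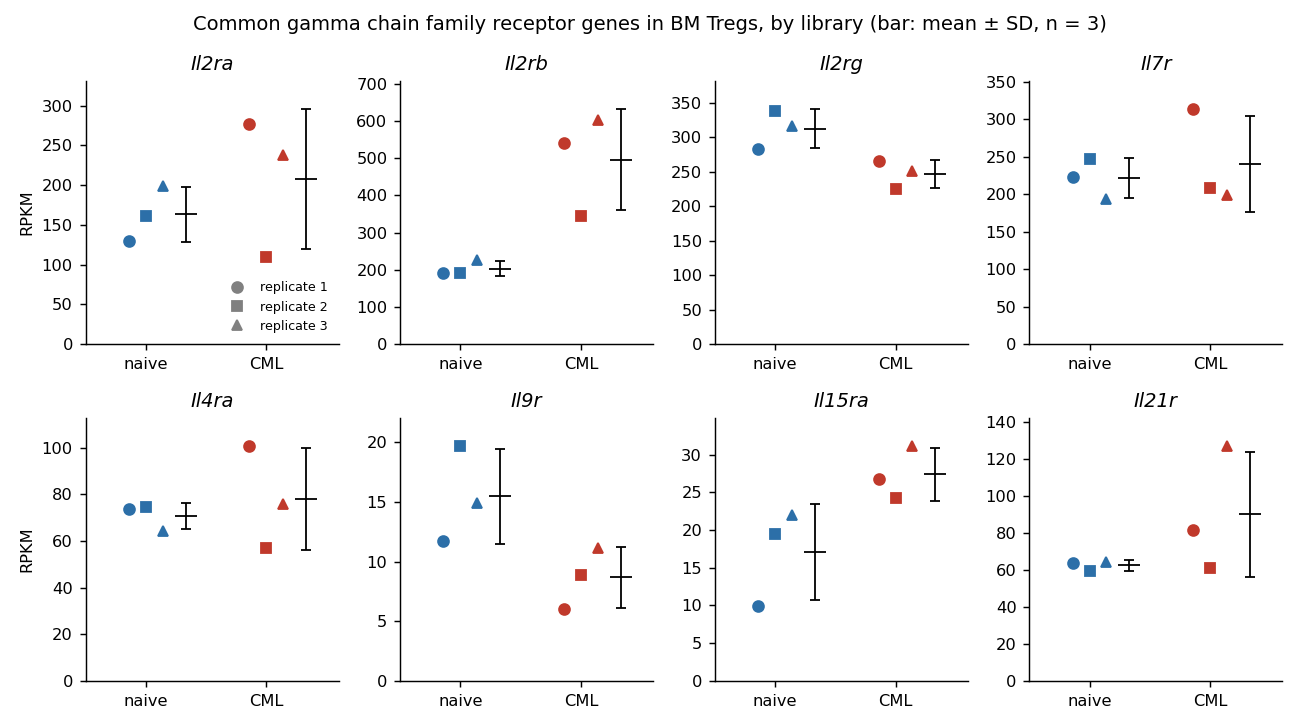
RPKM (y axis, from 0) of the 8 receptor genes in each naive (blue) and CML (red) library, with the replicate given by the symbol and the mean ± SD (n = 3) as a black bar beside it. All 3 CML libraries lie above all 3 naive libraries for Il2rb and Il15ra and below them for Il2rg and Il9r.

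Il2rb encodes the signaling chain shared by the receptors for IL-2 and IL-15 (CD122). The gene (ENSMUSG00000068227.9) is protein-coding and lies on chromosome 15 from 78479256 to 78495271 on the minus strand in GRCm38 (GENCODE M21), the build the submitters name. It stood at 540.3, 344 and 604 RPKM in the CML libraries, and at 191, 191 and 226 RPKM in those from naive mice. The lowest CML library lay well above the highest naive library. The means were 496 ± 136 and 202 ± 20.4 RPKM (SD, n = 3), with a difference of 1.25 on the log2(RPKM + 1) scale, used for all log2 fold changes here (standard error 0.22, 95% interval 0.74 to 1.77, limma unadjusted p = 0.000543, adjusted p = 0.115). By log2 fold change it ranked 288 and by p it ranked 66 among the 13923 features. The difference passed the adjusted threshold in 5 of 19 alternative analyses, among them the one without CML replicate 2 (log2 fold change 1.497, adjusted p = 0.0354, with 0.115% of all features called) and the one with libraries scaled to the same sum without their 10 highest features (1.33, adjusted p = 0.0294, 0.345% called). The other 3 were quantile normalization and equal 75th percentiles over the tested genes (0.381% called in each) and library weights (0.323% called). Over all 19, the log2 fold change stayed between 1.04 and 1.497 and the adjusted p between 0.0264 and 0.581. NK cells and memory CD8 T cells also express Il2rb. The study's gating scheme for Tregs starts from CD4+ T cells, but the gate of the sort for RNA is not stated separately. Of their markers, the 5 for NK cells summed to 0.14, 0 and 5.64 RPKM in the CML libraries, mostly Ncr1 in CML replicate 3 (4.56 RPKM). In naive libraries they summed to 0.70 to 2.23 RPKM. Cd8a was at 6.64, 15.4 and 7.45 RPKM and Cd8b1 at 52.8, 35.7 and 66.8 RPKM in the CML libraries. Naive libraries had 2.75 to 7.53 RPKM of Cd8a and 23.4 to 52.2 RPKM of Cd8b1. The NK cell sum and both CD8 markers overlapped between the groups. The part of such cells in the Il2rb values was not tested.

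Il2ra, the private alpha chain of the IL-2 receptor (CD25), is the surface marker by which Tregs are commonly recognised. The gene (ENSMUSG00000026770.5) is protein-coding, on chromosome 2 from 11642807 to 11693193 on the plus strand. The annotation also places Gm37881 there on the same strand, so reads from any shared bases cannot be told apart. It stood at 277, 109 and 237 RPKM in the CML libraries, and at 130.2, 161 and 200 RPKM in those from naive mice. CML replicates 1 and 3 lay above all naive libraries and CML replicate 2 lay below them. The means were 208 ± 87.7 and 163 ± 34.8 RPKM (SD, n = 3), with a log2 fold change of 0.26 (95% interval -0.54 to 1.06, limma adjusted p = 0.816). With 1 library left out in turn, the log2 fold change ranged from -0.00024 (without CML replicate 1) to 0.67 (without CML replicate 2, limma adjusted p = 0.281). Without CML replicate 3 or without naive replicate 1 it was 0.11, so its size did not depend on CML replicate 2 alone. Over the 19 alternatives its adjusted p ranged from 0.281 to 1.

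The RefSeq promoter table (GRCm38.p6) held windows for 7 of the 8 genes, all but Il2rb, and the 250 bases before the annotated start of Il2ra are shown because Il2ra is the chain whose promoter responds to T cell activation. The window is chr2:11642542-11642791 on the plus strand, and the capitals mark the 1 match, on the opposite strand, to GGG followed by 3 bases of any kind and TTCC, a form of site that NF-kB proteins bind.
Il2ra: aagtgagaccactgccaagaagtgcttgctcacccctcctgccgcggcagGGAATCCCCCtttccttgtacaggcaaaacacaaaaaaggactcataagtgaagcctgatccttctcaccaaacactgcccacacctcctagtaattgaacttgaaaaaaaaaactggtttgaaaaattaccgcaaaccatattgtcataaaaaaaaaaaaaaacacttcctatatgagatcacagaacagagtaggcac
The motif was searched on both strands, and 4.65% of the 32851 promoter windows of this length held it. None of the other 6 genes with a window had a match. A match gives only the letters and no binding was measured here.

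Il2rg encodes the common gamma chain itself, which takes part in a receptor for each of the 6 cytokines. The gene (ENSMUSG00000031304.18) lies on chromosome X from 101264378 to 101268255 on the minus strand, where the annotation also places the protein-coding gene Gm20489 on the same strand, so reads from the overlap cannot be told apart. Il2rg stood at 265, 225 and 251 RPKM in the CML libraries, and at 283, 339 and 316 RPKM in those from naive mice. All CML libraries lay below all naive libraries, with a narrow gap between CML replicate 1 and naive replicate 1. The means were 247 ± 20.4 and 313 ± 28.3 RPKM (SD, n = 3), with a log2 fold change of -0.34 (95% interval -0.67 to -0.0025, limma unadjusted p = 0.0487, adjusted p = 0.513). This is 0.79 times the naive level and less than the fold of 1.5 used for calls, and 12.2% of all features were likewise lower without overlap.

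The 250 bases before the annotated start of Il2rg are shown beside those of Il2ra because this is the chain that the receptors of the family share. The window is chrX:101268256-101268505, printed 5′ to 3′ on the minus strand.
Il2rg: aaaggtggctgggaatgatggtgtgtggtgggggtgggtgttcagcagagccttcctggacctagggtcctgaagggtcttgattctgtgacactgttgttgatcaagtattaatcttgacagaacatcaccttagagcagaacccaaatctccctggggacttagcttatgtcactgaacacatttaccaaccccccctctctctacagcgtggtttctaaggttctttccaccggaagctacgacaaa
It held no match to the 4 motifs searched on both strands, namely TTCNNNGAA (a form that STAT proteins bind, in 7.02% of all windows), CCGGAAGT (ETS proteins, 2.88%), the NF-kB form given for Il2ra and TGANTCA (AP-1, 6.75%). Only these exact forms were searched, so other forms of sites for the same proteins, ETS proteins included, would be missed.

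Il7r encodes the IL-7 receptor alpha chain (CD127), which also pairs with Crlf2 to form the receptor for TSLP. The gene (ENSMUSG00000003882.5) lies on chromosome 15 from 9505788 to 9530176 on the minus strand. It stood at 314, 208 and 199 RPKM in the CML libraries, and at 223, 247 and 194 RPKM in those from naive mice. CML replicate 1 was the highest library and the other 2 CML libraries lay within the naive range. The means were 240.3 ± 63.6 and 221 ± 26.8 RPKM (SD, n = 3), with a log2 fold change of 0.09 and a 95% interval from -0.39 to 0.57 (limma adjusted p = 0.895). Its sign turned to -0.12 when the 75th percentile of features with reads was made equal between libraries and to -0.11 without CML replicate 1. The 7 genes' promoter windows held 1 match to TTCNNNGAA, in that of Il7r, at bases -142 to -134 before the annotated RefSeq start. This RefSeq start and the match lie within the GENCODE span given above, downstream of its start at 9530176. The match is shown in capitals within the 30 bases of chr15:9530000-9530029 on the minus strand.
Il7r: agttcaggagcTTCAGGGAAtaccaagatg

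Il4ra encodes the IL-4 receptor alpha chain, which also joins Il13ra1 to form a receptor for IL-4 and IL-13. The gene (ENSMUSG00000030748.9) lies on chromosome 7 from 125552120 to 125579474 on the plus strand, with the antisense gene Gm44876 on the other strand, and the counting is not stated to use strand. It stood at 101, 57.0 and 75.9 RPKM in the CML libraries, and at 73.5, 74.4 and 64.1 RPKM in those from naive mice. The CML libraries lay on both sides of the naive ones. The means were 77.9 ± 21.9 and 70.7 ± 5.71 RPKM (SD, n = 3), with a log2 fold change of 0.10 and a 95% interval from -0.43 to 0.63 (limma adjusted p = 0.895). As for Il7r, the sign turned when the 75th percentile of features with reads was made equal (-0.10) and without CML replicate 1 (-0.099). Its partner Il13ra1 was at 0.30 to 1.13 RPKM in all 6 libraries and was below the filter.

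Il21r encodes the receptor for IL-21 and its gene (ENSMUSG00000030745.9) is the next one after Il4ra on chromosome 7, from 125603429 to 125633570, with 23954 bases and no annotated gene between them. It stood at 81.8, 61.1 and 127 RPKM in the CML libraries, and at 63.7, 59.3 and 64.4 RPKM in those from naive mice. CML replicates 1 and 3 were above all naive libraries, and CML replicate 2 was within their range. The means were 90.0 ± 33.7 and 62.4 ± 2.75 RPKM (SD, n = 3), with a log2 fold change of 0.46 (95% interval -0.15 to 1.07, limma adjusted p = 0.611). CML replicate 3 set much of this size, since the log2 fold change was 0.18 without it (adjusted p = 0.685) and 0.70 without CML replicate 2 (adjusted p = 0.276). Over the 19 alternatives its adjusted p ranged from 0.276 to 0.877.

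Il15ra encodes the alpha chain that binds IL-15 and presents it to Il2rb and Il2rg, often on a neighboring cell. The gene (ENSMUSG00000023206.16) follows Il2ra on chromosome 2, from 11705290 to 11734317, with 12096 bases and no annotated gene between them. It stood at 26.8, 24.2 and 31.2 RPKM in the CML libraries, and at 9.93, 19.5 and 21.9 RPKM in those from naive mice. The groups did not overlap, although naive replicate 3 and CML replicate 2 were close. The means were 27.4 ± 3.52 and 17.1 ± 6.35 RPKM (SD, n = 3), with a log2 fold change of 0.71 (95% interval -0.054 to 1.47, limma unadjusted p = 0.0645, adjusted p = 0.546). Naive replicate 1 carried much of the difference, since the log2 fold change was 0.38 without it (adjusted p = 0.871). Over the 19 alternatives its adjusted p ranged from 0.434 to 0.871. The value of CML replicate 2 rests on about 46 reads, estimated with the longest annotated transcript. The window before the second annotated start of Il15ra held the 1 match to TGANTCA among the windows of these genes, at bases -30 to -24. This window lies within the GENCODE span given above, downstream of its start. The match is shown in capitals within the 30 bases of chr2:11705670-11705699 on the plus strand.
Il15ra: gggtggggatgcTGAGTCAcagatctgtca

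Il9r, the private chain for IL-9, was at the lowest level of the family in CML Tregs. The gene (ENSMUSG00000020279.10) lies on chromosome 11 from 32187541 to 32200279 on the minus strand. It stood at 6.05, 8.87 and 11.1 RPKM in the CML libraries, and at 11.8, 19.7 and 14.9 RPKM in those from naive mice. All CML libraries lay below all naive libraries, but the gap between CML replicate 3 and naive replicate 1 was small. The means were 8.68 ± 2.53 and 15.5 ± 3.997 RPKM (SD, n = 3), with a log2 fold change of -0.77 (95% interval -1.59 to 0.046, limma unadjusted p = 0.0612, adjusted p = 0.539). The value of CML replicate 2 corresponds to about 33 reads by the same estimate, and those of the other libraries to 114 to 774. Of the mast cell and basophil markers, cells that can also express Il9r, none exceeded 3.40 RPKM in a library.

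**Figure D2:**
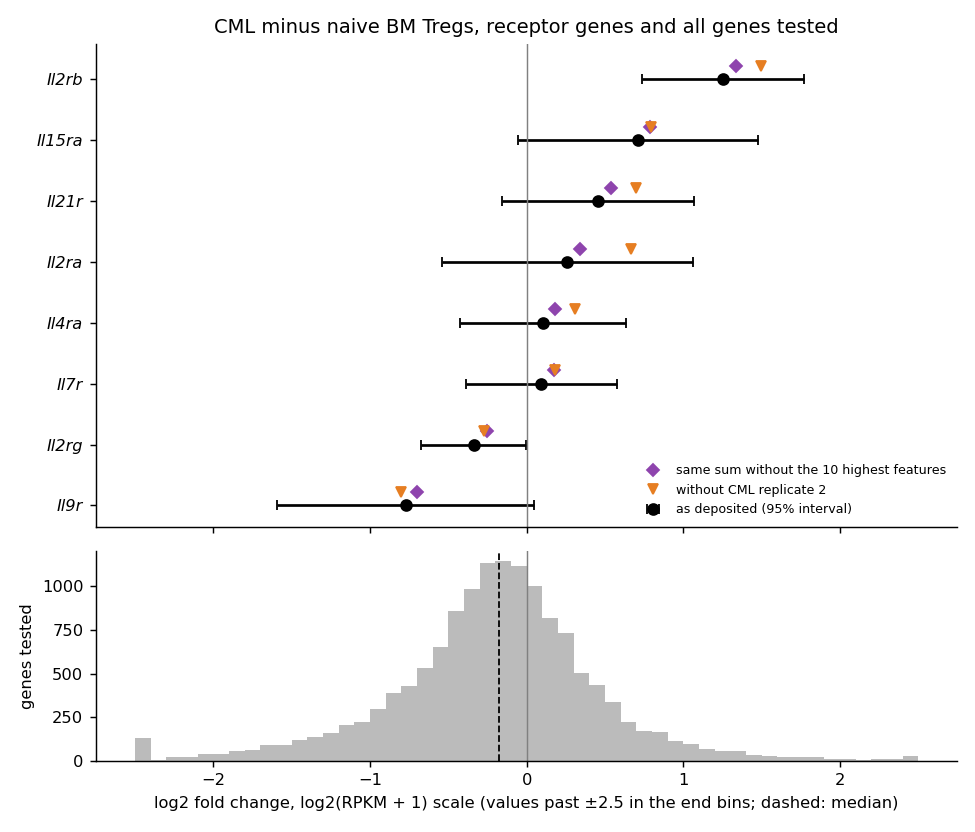
Upper panel: log2 fold change (CML minus naive, log2(RPKM + 1) scale) of the 8 genes with limma's 95% interval (black), with libraries scaled to the same sum without the 10 highest features (purple), and without CML replicate 2 (orange). Lower panel: the same quantity for the 13923 features tested, with the median of -0.18 dashed. Il2rb, at 1.25, has an interval wholly above 0, and all others but that of Il2rg, which ends at -0.0025, reach or cross 0.

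All log2 fold changes shift together with the way libraries are scaled, and the median over all features tested moved from -0.18 as deposited to -0.0068 with quantile normalization and to -0.36 with equal 75th percentiles of features with reads. Relative to this median, the 8 genes kept their sign in all 5 scalings. This was nearly fixed in advance for all but quantile normalization. The others only rescale whole libraries, which shifts each gene and the median by nearly the same amount. Il2rb was 1.37 to 1.44 above the median, Il15ra 0.82 to 0.89, Il21r 0.51 to 0.64, Il2ra 0.33 to 0.45, Il4ra 0.16 to 0.29 and Il7r 0.15 to 0.28. Il2rg and Il9r were below the median, with relative values of -0.23 to -0.15 and of -0.64 to -0.59.

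Ratios of 2 chains within a library do not depend on how libraries were scaled against each other, and they are given as a description without a test. Il2rb over Il2rg was 2.04, 1.53 and 2.41 in CML replicates 1, 2 and 3 and 0.67, 0.56 and 0.71 in naive replicates 1, 2 and 3. Every CML Treg library thus held more Il2rb than Il2rg per length, and every naive library held less. The mean log2 ratio was 0.97 ± 0.33 in CML and -0.63 ± 0.18 in naive Tregs (SD, n = 3), and the difference of 1.596 ranged from 1.45 to 1.77 when each library was left out in turn. Il2rb over Il2ra was 1.95, 3.15 and 2.54 in CML and 1.46, 1.19 and 1.13 in naive replicates 1, 2 and 3. Here CML replicate 2, with the lowest Il2ra, had the highest ratio. Il2rb over Il7r was 1.72, 1.65 and 3.03 in CML and 0.85, 0.77 and 1.17 in naive replicates 1, 2 and 3, again without overlap.

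Of the other 6 chains set against Il2rg, all but Il9r had a higher mean log2 ratio in CML Tregs, by smaller amounts than Il2rb, and the ratios of Il15ra, Il21r and Il7r separated the libraries. These ratios share their denominator, and the mean log2 level of Il2rg alone differed by -0.34. This makes up most of the differences for Il7r and Il4ra and the larger part of that for Il2ra. Il21r over Il2rg was 0.31, 0.27 and 0.51 in CML and 0.23, 0.17 and 0.20 in naive replicates 1, 2 and 3, without overlap. Il7r over Il2rg was 1.18, 0.92 and 0.79 compared with 0.79, 0.73 and 0.61, a separation that rests on the third decimal between CML replicate 3 (0.794) and naive replicate 1 (0.790). Il2ra over Il2rg (1.04, 0.49 and 0.95 compared with 0.46, 0.47 and 0.63) and Il4ra over Il2rg (0.38, 0.25 and 0.30 compared with 0.26, 0.22 and 0.20) overlapped between the groups. The differences in mean log2 ratio were 0.80 for Il21r, 0.60 for Il2ra, 0.44 for Il4ra and 0.43 for Il7r, each relative to Il2rg. Leaving out CML replicate 1 lowered those of Il2ra, Il4ra and Il7r to 0.39, 0.29 and 0.28, leaving out CML replicate 2 raised that of Il2ra to 0.94, and leaving out CML replicate 3 lowered that of Il21r to 0.53. The ratios of Il15ra and Il9r to Il2rg were added after their values were seen. Il15ra over Il2rg was 0.101, 0.108 and 0.124 in CML and 0.035, 0.058 and 0.069 in naive replicates, a difference in mean log2 ratio of 1.09 (0.81 to 1.296 with 1 library left out). Il9r over Il2rg was 0.023, 0.039 and 0.044 compared with 0.042, 0.058 and 0.047, with overlap and a difference of -0.51, or -0.22 without CML replicate 1.

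**Figure D3:**
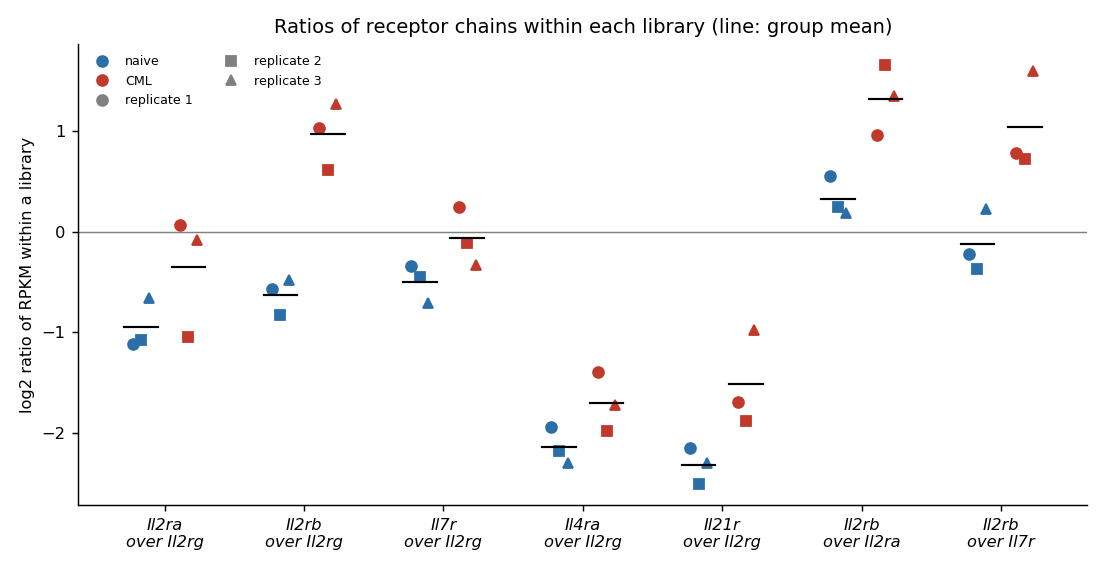
log2 ratio of the RPKM of 2 receptor genes within each library (y axis) for 7 pairs of genes, in naive (blue) and CML (red) libraries, with the replicate given by the symbol and the group mean as a line. For Il2rb over Il2rg the CML libraries lie above 0 and the naive libraries below it.

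The order of the chains by level differed between the groups at the top. In naive Tregs, Il2rg was the highest, and its lowest library was above the highest Il7r library. It was followed by Il7r, Il2rb and Il2ra, whose library ranges overlapped from neighbor to neighbor. In CML Tregs, Il2rb came first without overlap with Il2rg, and Il2rg, Il7r, Il2ra and Il21r followed, each range overlapping the next. Il4ra and Il21r overlapped each other in both groups, and Il15ra and Il9r were the lowest, with overlapping ranges in naive and separate ranges in CML Tregs. Il15ra exceeded Il9r in 3 of 3 CML libraries and in 1 of 3 naive libraries.

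As a share of the summed RPKM of the 8 genes, Il2rb took 33.5%, 33.2% and 39.3% in CML and 19.3%, 17.2% and 20.5% in naive replicates 1, 2 and 3. The share of Il2rg was 16.5%, 21.7% and 16.3% in CML and 28.7%, 30.5% and 28.7% in naive replicates. The Il2rb share was higher and the Il2rg share lower in every CML library than in any naive library. Shares of a fixed total move against each other, and the mean level of Il2rg itself was 0.79 times that of naive Tregs while its mean share was 18.2% compared with 29.3%. The share of Il2ra (14.4% ± 3.46 and 15.3% ± 2.55, SD, n = 3) and that of Il7r (17.5% ± 3.93 and 20.8% ± 2.81, SD, n = 3) overlapped. The sum of the 8 genes was 1611, 1037 and 1537 RPKM in CML and 985, 1111 and 1101 RPKM in naive replicates 1, 2 and 3, and CML replicate 2 lay among the naive libraries.

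**Figure D4:**
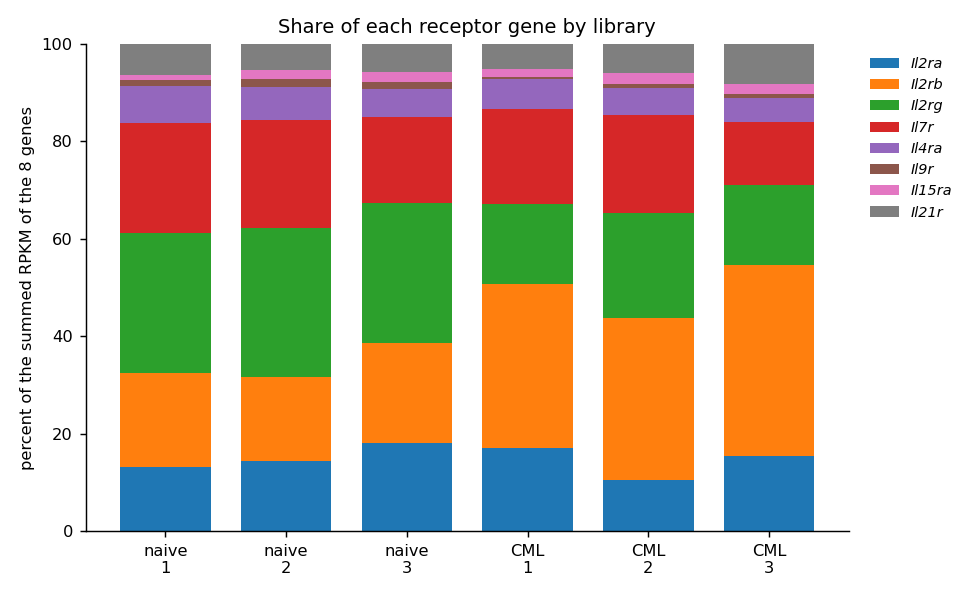
Share of each receptor gene (y axis, percent of the summed RPKM of the 8 genes) in the 3 naive and 3 CML libraries, stacked to 100%. The Il2rb segment spans 33.2% to 39.3% in CML and 17.2% to 20.5% in naive libraries.

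The pathway around these receptors was followed with a list of 41 ligands, partner chains, kinases, STATs, inhibitors, adaptors, targets and regulators, of which 35 were tested. In the limma fit over all features, 0 of the 35 passed the adjusted p with the fold threshold (0.172% of all features did), and at the unadjusted p 5 were higher and 1 was lower (2.61% and 5.94% of all features). Their median log2 fold change was 0.15. Libraries did not overlap for 8 higher and 3 lower genes of the list, beside 4.84% and 12.2% of all features.

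The feedback inhibitors dampen cytokine receptor signaling, and Cish and the Socs genes among them are themselves induced by STATs. All 5 (Cish, Socs1, Socs2, Socs3 and Ptpn2) had log2 fold changes above 0, at a median of 0.77. Over all features tested, 4977 of 13923 were above 0, at a median of -0.18. Cish, a target of STAT5 downstream of IL-2, stood at 214, 161 and 160 RPKM in the CML libraries, and at 75.8, 97.6 and 98.4 RPKM in those from naive mice. All CML libraries lay above all naive ones, and their log2 fold change was 0.97 (standard error 0.19; limma unadjusted p = 0.000958, adjusted p = 0.152). Socs1, which inhibits JAK kinases, stood at 51.0, 35.9 and 49.97 RPKM in the CML libraries, and at 27.1, 21.2 and 23.6 RPKM in those from naive mice, again without overlap (log2 fold change 0.89, limma adjusted p = 0.273). Socs3 had 56.2, 78.3 and 83.2 RPKM compared with 42.1, 44.4 and 38.1 RPKM, also without overlap (0.77, limma adjusted p = 0.282). Socs2 and Ptpn2 overlapped between the groups, with log2 fold changes of 0.17 and 0.05.

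Of the 2 kinases, Jak3, which binds Il2rg, stood at 119, 86.2 and 123 RPKM in the CML libraries, and at 55.3, 60.5 and 73.2 RPKM in those from naive mice. The libraries did not overlap, with 0.78 ± 0.20 (log2 fold change and its standard error; limma unadjusted p = 0.00531, adjusted p = 0.281). Jak1, which binds the other signaling chains such as Il2rb, had 258 ± 37.5 RPKM in CML and 293 ± 29.9 RPKM in naive Tregs (SD, n = 3), with overlapping libraries (log2 fold change -0.18, limma adjusted p = 0.718). Within the pair, the mean of Jak3 was thus 1.73 times as high in CML Tregs and that of Jak1 was 0.88 times as high.

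The STATs went in both directions. Stat5a and Stat5b, which carry the IL-2, IL-7, IL-9 and IL-15 signals, overlapped between the groups. Stat5a had 38.2 ± 3.01 and 37.2 ± 1.84 RPKM (SD, n = 3) in the CML and naive groups and a log2 fold change of 0.04 (95% interval -0.39 to 0.47, limma adjusted p = 0.957) whose sign turned to -0.17 with equal 75th percentiles of features with reads. Stat5b had 91.9 ± 7.52 and 101 ± 16.1 RPKM (log2 fold change -0.13, limma adjusted p = 0.818). Stat6, which acts downstream of Il4ra, stood at 67.2, 41.7 and 63.9 RPKM in the CML libraries, and at 79.3, 91.0 and 88.9 RPKM in those from naive mice, lower without overlap (log2 fold change -0.60, limma unadjusted p = 0.0250, adjusted p = 0.439). Stat3, which acts downstream of Il21r, was higher without overlap, at a log2 fold change of 0.48 (limma adjusted p = 0.487).

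Among the regulators of the receptor genes, Tbx21 (T-bet), which activates Il2rb in other lymphocytes, stood at 20.04, 17.4 and 21.7 RPKM in the CML libraries, and at 5.93, 8.59 and 12.4 RPKM in those from naive mice. The libraries did not overlap, with 1.10 ± 0.34 (log2 fold change and its standard error; limma unadjusted p = 0.0114, adjusted p = 0.346). Eomes, the related factor of NK and memory CD8 T cells, was at 0 to 0.14 RPKM in CML and 0.48 to 1.18 RPKM in naive libraries and was under the filter. Foxo1, which activates Il7r, stood at 69.2, 42.5 and 77.7 RPKM in the CML libraries, and at 86.9, 110.5 and 79.5 RPKM in those from naive mice, lower without overlap (log2 fold change -0.57, limma adjusted p = 0.532), with a narrow gap between CML replicate 3 and naive replicate 3. The 7 cytokine-induced targets (Bcl2, Bcl2l1, Mcl1, Pim1, Pim2, Myc and Ccnd2) all overlapped between the groups, with log2 fold changes from -0.87 to 0.39.

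**Figure D5:**
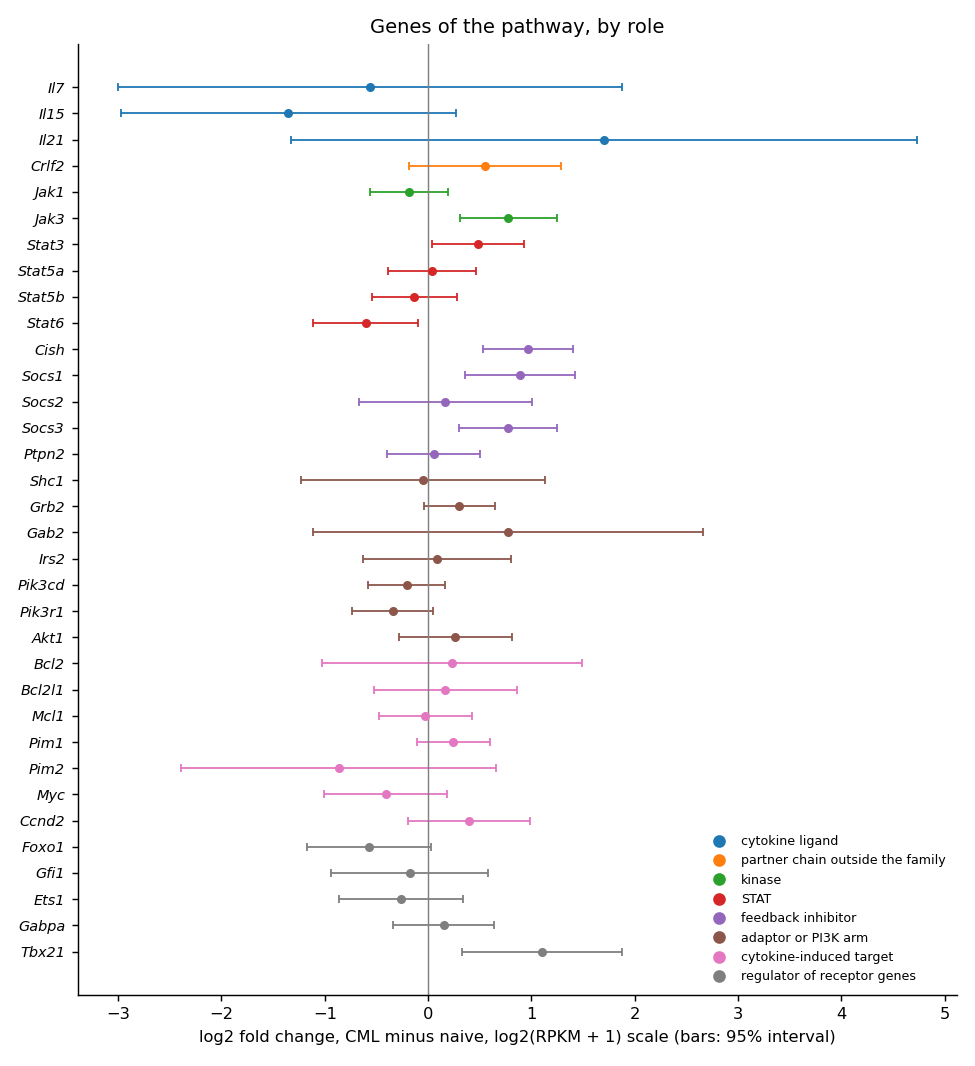
log2 fold change (x axis, CML minus naive, log2(RPKM + 1) scale) of 34 tested genes of the pathway list, colored by role, with limma's 95% interval. Jak3, Cish, Socs1, Socs3 and Tbx21 are among the genes with an interval wholly above 0, and the interval of Stat6 lies below it.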

How the data were processed

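Tregs of 3 CML and 3 naive mice were profiled, with 1 library per mouse and groups taken from the sample titles. The authors prepared SMART-Seq v4 libraries, sequenced single-end reads, used SeqMan NGen for assembly and ArrayStar for analysis, and the submitters' processing notes name GRCm38 and mm10. The deposited values are read as RPKM, a unit the sources do not name, because they are not whole, their sums differ between libraries and, for the 78 to 191 low values per library among 1297 microRNA and small nucleolar RNA features of known length, value times length tended to be a whole number of equal steps (31.7% to 58.5% within 0.05 of a whole step, compared with 10% by chance, without the products that define the step). The step gave the estimated reads, which are approximate and cover counting error only. The deposited 0.001 was set to 0. A different length-scaled unit could give the same steps. The methods name DEseq2, log2 transformation and a 2-way ANOVA. DEseq2 needs counts and was not run here.

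limma 3.58.1 in R 4.3.3 was run on log2(RPKM + 1) with a trended prior variance and Benjamini-Hochberg adjustment over the 13923 features with a mean of at least 1 RPKM. A call needed an adjusted p under 0.05 and a fold of at least 1.5, the thresholds of the study. The fit was tested on simulated data. Python 3.11.15 and pandas 2.3.3 made the other tables. Positions come from GENCODE M21. The labels do not say whether replicates differ in batch, and p-values measure the spread between these mice. The members and gene lists were chosen with earlier results of these data known. The text names the 8 members, pathway genes that reach the fold with p under 0.05 before adjustment, and Jak1, Jak3, Stat5a, Stat5b and Cish whatever their values. Il13ra1, Stat3, Socs2, Ptpn2, Eomes, Foxo1, the cytokine-induced targets and the ligands were added after their values were seen. Some genes of the lists are not reported here. Alternatives covered pseudocount, filter, scaling, left-out libraries, replicate block, variance prior, library weights and feature classes.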

Additional observations from a re-analysis of the deposited data

How the results depend on the processing

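The number of features called by limma, 24 as reported (6 higher and 18 lower in CML Tregs), depended on the settings. It was 0 with a pseudocount of 0.001 (973 reached the fold with p under 0.05 before adjustment), 1 without a filter, 11 without a trend, 12 without microRNA, small nucleolar RNA and T cell receptor segment features (6 higher and 6 lower), 46 with equal 75th percentiles of features with reads (5 and 41), 53 with quantile normalization (23 and 30), 48 with equal sums without the 10 highest features (18 and 30) and 45 with library weights (17 and 28). It was 53 (21 and 32) with equal 75th percentiles over the tested genes, an alternative chosen after seeing the data. Leaving out 1 library gave 0 to 17, with 0 without each of the naive libraries (742 to 851 before adjustment) and 16 without CML replicate 2 (10 and 6). The pathway list had 0 calls in all 19 alternatives.

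Il2rb passed the threshold in 5 of the 19 alternatives. Its log2 fold change was 1.36 with quantile normalization, 1.33 with equal sums and 1.34 with library weights. It was 1.32 with equal 75th percentiles over the tested genes and 1.497 without CML replicate 2 (leave-one-out range 1.09 to 1.497). Without CML replicate 2 and with equal 75th percentiles of features with reads, it did not pass (1.28, limma adjusted p = 0.0778). Without a naive library it did not pass either (limma adjusted p from 0.390 to 0.581). The sign turned for Il7r with equal 75th percentiles of features with reads (-0.12, and -0.039 when CML replicate 2 was also left out, an alternative chosen after seeing the data; leave-one-out range -0.11 to 0.21), for Il4ra (-0.10; -0.099 to 0.31), for Stat5a (-0.17, and -0.12 when CML replicate 2 was also left out; -0.0085 to 0.10) and for Il2ra without CML replicate 1 (-0.00024 to 0.67). The cause was not tested. Il2rg, Il9r, Il15ra and Il21r kept their sign and stayed uncalled in all 19 alternatives. The 7 ratios without Il15ra and Il9r stayed within 1 SD of their reported differences, but this was fixed in advance and is no sign of robustness. Leaving out 1 library of such small groups cannot move a difference by 1 pooled SD, and a pseudocount of 1 hardly changes these genes. The leave-one-out range was 0.39 to 0.94 for Il2ra over Il2rg and 1.45 to 1.77 for Il2rb over Il2rg.

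With the replicate number as a block, 1 feature was called and no receptor gene passed (Il2rb log2 fold change 1.25, adjusted p = 0.217). The numbers belong to different mice, and the deviations of same-numbered libraries from their group means had correlations of -0.0048, -0.0016 and -0.019 over the tested features. No pairing by number was seen over these features as a whole, which cannot exclude one in part of them. With about 829181 reads in CML replicate 2, values of Il9r and Il15ra there are the least precise.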

Other observations

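The cytokines of the family were sparsely represented in the Treg libraries, as values outside the comparisons above. Il4 and Il9 were at 0 in all 6 libraries, and Il2 was at 0.89 RPKM in naive replicate 2 and at 0 elsewhere. Il21 had 33.7 RPKM in CML replicate 3 and 0 in the other 5 libraries. Il7 had 9.75 RPKM in naive replicate 1 and 5.08 RPKM in CML replicate 1, with no other library over 0.49 RPKM. Il15 had 3.99 and 2.34 RPKM in naive replicates 2 and 3 and 0 in the other 4 libraries.

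The genes whose pattern over the 6 libraries was most like that of a receptor gene were looked up among 7845 genes averaging 10 RPKM or more, by Pearson r of log2(RPKM + 1). With so many candidates and 6 libraries of 2 groups, high values of r arise readily, and they are given as a description. For Il2rb these were Tnfrsf1b (r = 0.996), which encodes TNF receptor 2, Ppp1r16b (0.993), a regulatory subunit of protein phosphatase 1, and Crem (0.989), a transcription factor of the cAMP response. Tnfrsf1b had 221, 148 and 231 RPKM in CML and 81.2, 80.4 and 88.2 RPKM in naive replicates 1, 2 and 3, and Crem had 25.0, 18.3 and 33.4 RPKM compared with 8.82, 8.00 and 11.7 RPKM. In both, as in Il2rb, CML replicate 2 was the lowest CML library and yet above all naive libraries. For Il2ra they were Med13 (0.992), Peli1 (0.991) and Anapc13 (0.990). For Il7r they were Fundc2 (0.974), Ints9 (0.971) and Dhx57 (0.949), whose log2 fold changes were 0.09, 0.05 and 0.01.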
